A study of Mus musculus with 6 samples.

Results

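Tuft cells are rare epithelial cells of the gut that sense the content of the lumen. They are known for a taste-like cascade, in which a receptor acts through the G protein alpha subunit gustducin (Gnat3) and a phospholipase to open the cation channel Trpm5, for a bundle of actin filaments bound by advillin (Avil), and for enzymes that turn arachidonic acid into leukotrienes and prostaglandins. Their formation in the intestine depends on the POU-domain transcription factor Pou2f3. The 10 genes described here are Trpm5, Gnat3, Rgs13, Avil and Dclk1 (chemosensory and structural), Alox5, Alox5ap and Ptgs1 (eicosanoid), and Pou2f3 and Gfi1b (transcription factors). They were taken by symbol, 10 of 16819 symbols in the table of RingKO and WT cells and 8 of 15915 in the table of the beta-catenin pair, with 1 RefSeq entry each. Dclk1 and Gfi1b had no entry in the second table and were not analysed there.

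RNA-seq libraries came from Lgr5-GFP+ intestinal stem cells that were sorted from crypts of the small intestine of C57BL/6 mice, 6 days after 3 tamoxifen injections. All 6 libraries carried the Lgr5Gfp-CreERT2 allele, a tamoxifen-activated Cre recombinase expressed with GFP in Lgr5+ stem cells. RingKO cells (2 libraries) had in addition Ring1a-/- and Ring1bf/f alleles and were set against WT cells (2 libraries) with Cre alone. Bcat_RingKO cells (1 library) combined the Ctnnb1-ex3 allele of the beta-catenin gene with Ring1a-/- and Ring1bf/f and were set against Bcat cells (1 library), which had Ctnnb1-ex3 without the Ring alleles. Ring1a (Ring1) and Ring1b (Rnf2) are the catalytic subunits of Polycomb repressive complex 1, a complex that marks histones at silent genes, and the series asks what that complex does in the intestine. The labels give no age and do not say whether libraries came from separate or pooled animals, so p-values measure only how far these libraries vary, and that variation may be technical. The letters A and B name the libraries of a group and carry no match to the replicate numbers of the labels.

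Depth was 2911422 and 2651201 reads in the RingKO libraries, 6753789 and 6294932 in WT, 4470853 in Bcat_RingKO and 922153 in Bcat. Ring1 had 9 and 11 reads in RingKO against 484 and 363 in WT. In RPM (reads per 1000000 reads of the library) Ring1 stood at 3.09 and 4.15 in RingKO against 71.7 and 57.7 in WT, and at 9.62 in Bcat_RingKO against 26.0 in Bcat. Rnf2 was not lower, with 48.8 and 38.9 RPM in RingKO against 32.6 and 39.1 in WT, and 122.1 in Bcat_RingKO against 84.6 in Bcat. The labels do not give the deleted stretch of Rnf2, so counts over its transcript do not check that allele. Lgr5 had 158 and 83.7 RPM in RingKO against 139.5 and 146.5 in WT, and 337 in Bcat_RingKO against 158 in Bcat. A count of 3 reads, taken as the floor of detection, stood at 1.03 and 1.13 RPM in RingKO, 0.444 and 0.477 in WT, 0.671 in Bcat_RingKO and 3.25 in Bcat.

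Most of the tuft cell genes were lower in RingKO cells than in WT cells. Trpm5, Avil, Rgs13, Alox5 and Alox5ap fell, where "fell" and "rose" are used of genes whose adjusted p, as deposited by the authors, was under 0.05. By the authors' deposited table that was 5 of 10 genes lower and 0 higher, against a background of 1.76% of 18376 entries lower and 3.14% higher in the same table. The 10 genes were chosen with earlier results of these data known, so such shares describe them and do not test them. An unadjusted p under 0.05 was deposited for 6 of the 10, all lower, against 6.72% of all entries lower. On reads recovered for the single libraries, the quasi-likelihood test of edgeR called the same 5 of the 7 it tested (2.95% of 11170 entries were called lower), and DESeq2 called 4, without Alox5ap. In 8 of the 10 both RingKO libraries lay below both WT libraries in RPM, as they did in 26.2% of all entries. A subset of 7 had a mean of 10 or more normalized reads, and their median log2 fold change was -1.54 in the authors' deposited table, against -0.18 over the 10957 entries at that mean. Gnat3, Dclk1 and Gfi1b had at most 6 reads in any library, so the label of tuft cell genes rests on the other 7 here. In these bulk libraries fewer tuft cells and less RNA of these genes per cell cannot be told apart.

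**Figure D1:**
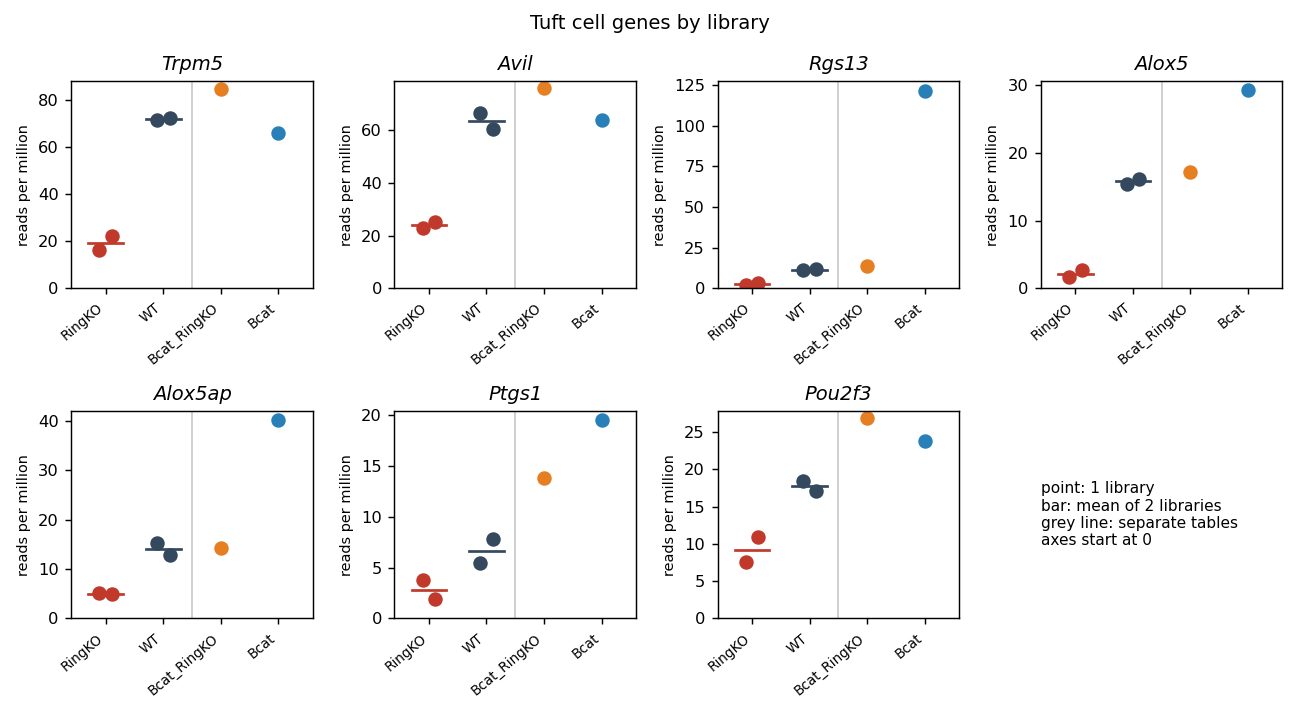
RPM (y axis, from 0) of the 7 tuft cell genes with a mean of 10 or more normalized reads, by genotype (x axis). Each point is 1 library and each bar the mean of 2 libraries; the grey line separates the tables, which were scaled apart. The RingKO points lie below both WT points in all 7 panels, and the Bcat point lies far above the others for Rgs13.

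Among the chemosensory and structural genes, Trpm5, the calcium-activated channel at the end of the taste cascade, had 47 and 59 reads in the RingKO libraries (16.1 and 22.3 RPM) against 484 and 457 in WT (71.7 and 72.6 RPM). The groups did not overlap, and both WT libraries stood well above the higher RingKO library. The log2 fold change from edgeR was -1.87 ± 0.18 (SE, 2 libraries per genotype; Benjamini-Hochberg adjusted p = 0.000643), and the authors' deposited table gave group means of 77.2 normalized reads in RingKO and 316 in WT, with an adjusted p of 1.99e-10. Avil, which encodes the actin-binding protein advillin, had 67 and 67 reads in RingKO (23.0 and 25.3 RPM) against 449 and 380 in WT (66.5 and 60.4 RPM). The RingKO libraries were close to each other and below both WT libraries, with an edgeR log2 fold change of -1.35 ± 0.16 and an adjusted p of 6.6e-06 in the authors' deposited table.

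Rgs13 encodes a regulator of G protein signalling that shortens the response of G protein-coupled receptors. It had 5 and 9 reads in RingKO (1.72 and 3.40 RPM) against 75 and 75 in WT (11.1 and 11.9 RPM). The groups did not overlap, and Rgs13 fell with an edgeR log2 fold change of -2.13 ± 0.38 and an adjusted p of 0.00727 in the authors' deposited table. With 1 WT library left out the edgeR adjusted p was 0.0669 (without A) or 0.0880 (without B). Gnat3, the gustducin subunit, was close to the floor, with 1 and 0 reads in RingKO and 4 and 3 in WT, as was Dclk1, a kinase widely used as a tuft cell marker, with 1 and 0 reads in RingKO and 0 and 3 in WT. Neither count can show a difference at this depth. The Dclk1 entry is 1 of 12 coding transcripts that RefSeq lists for the gene in GRCm38, and the others were not analysed here.

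The proximal promoters of 4 genes that fell in RingKO against WT are shown. In the beta-catenin pair these 4 did not move together. The ratios of Bcat_RingKO over Bcat there were 1.24 for Trpm5, 1.15 for Avil, 0.570 for Alox5 and 0.109 for Rgs13. Alox5ap fell as well, but no window was at hand for it. RefSeq windows for GRCm38.p6, 250 bases before to 50 after the start of transcription, were at hand for 8 of the 10 genes (9 windows, 2 of them for Dclk1); the expression files use mm9, and no coordinate was carried between the builds. The windows of Trpm5 (chr7:143094593-143094892, minus strand), Avil (chr10:127000459-127000758, plus strand), Alox5 (chr6:116461129-116461428, minus strand) and Rgs13 (chr1:144177323-144177622, minus strand) read as follows in the direction of transcription, with CpG dinucleotides in capitals:
Trpm5: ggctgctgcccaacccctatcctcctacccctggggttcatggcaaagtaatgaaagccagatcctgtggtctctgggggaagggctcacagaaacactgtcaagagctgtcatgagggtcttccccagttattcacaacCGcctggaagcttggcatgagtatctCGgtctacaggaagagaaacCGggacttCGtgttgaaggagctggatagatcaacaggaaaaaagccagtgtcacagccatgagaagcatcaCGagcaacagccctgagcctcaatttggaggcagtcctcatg
Avil: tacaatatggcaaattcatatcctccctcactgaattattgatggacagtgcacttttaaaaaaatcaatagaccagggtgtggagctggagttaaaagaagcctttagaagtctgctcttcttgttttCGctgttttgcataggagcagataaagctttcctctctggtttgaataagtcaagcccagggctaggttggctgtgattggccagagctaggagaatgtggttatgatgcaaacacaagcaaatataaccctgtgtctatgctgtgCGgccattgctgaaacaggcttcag
Alox5: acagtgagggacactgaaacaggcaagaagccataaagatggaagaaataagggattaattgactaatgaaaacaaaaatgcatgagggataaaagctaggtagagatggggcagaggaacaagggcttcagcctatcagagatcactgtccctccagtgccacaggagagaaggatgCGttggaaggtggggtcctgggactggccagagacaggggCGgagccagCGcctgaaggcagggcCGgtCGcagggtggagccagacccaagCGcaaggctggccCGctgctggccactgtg
Rgs13: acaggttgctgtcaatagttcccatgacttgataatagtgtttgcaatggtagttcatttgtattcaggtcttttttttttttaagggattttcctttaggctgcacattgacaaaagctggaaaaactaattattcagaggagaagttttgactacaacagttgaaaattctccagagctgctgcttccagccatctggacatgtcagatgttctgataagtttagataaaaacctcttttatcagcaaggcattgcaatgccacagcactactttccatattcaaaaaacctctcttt
In mammals CpG-rich promoters are the usual sites of Polycomb complexes. The 9 windows held 0 to 7 CpG, against a median of 7 (quartiles 3 and 20) over 32851 promoters. Rgs13 had 0, Avil 2, Trpm5 5 and Alox5 7. The octamer bound by POU factors such as Pou2f3, ATGCAAAT, was searched on both strands and was in 0 of the 9 windows, against 1.74% of all promoters. Its first 7 letters, ATGCAAA, were in the Avil window at -15 on the plus strand and at -115 on the minus strand, and in no other of the 9, against 4.63% of all promoters. These are matches of letters in 300 bases and say nothing of binding.

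In RingKO against WT the eicosanoid genes moved in the same direction as the chemosensory and structural genes. Alox5, arachidonate 5-lipoxygenase, which makes the first leukotriene intermediate, had 5 and 7 reads in RingKO (1.72 and 2.64 RPM) against 104 and 102 in WT (15.4 and 16.2 RPM). Of the 7 tuft cell genes tested it had the largest edgeR log2 fold change, at -2.81 ± 0.34 (adjusted p = 0.00168), and the authors' deposited table gave means of 10.01 in RingKO and 69.8 in WT, with an adjusted p of 2.79e-05. Alox5ap, the protein that presents arachidonic acid to 5-lipoxygenase, had 15 and 13 reads in RingKO (5.15 and 4.90 RPM) against 103 and 81 in WT (15.3 and 12.9 RPM). It fell, with a log2 fold change of -1.44 ± 0.29 and an adjusted p of 0.0394 in the authors' deposited table, close to the threshold. By DESeq2 the adjusted p was 0.0724, and by edgeR it was 0.184 without WT library A and 0.0867 without WT library B. Ptgs1, the constitutive cyclooxygenase of prostaglandin synthesis, had 11 and 5 reads in RingKO (3.78 and 1.89 RPM) against 37 and 49 in WT (5.48 and 7.78 RPM). The groups did not overlap, but Ptgs1 did not pass (log2 fold change -1.16 ± 0.45, adjusted p = 0.500 in the authors' deposited table).

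Of the transcription factors, Pou2f3 had 22 and 29 reads in RingKO (7.56 and 10.9 RPM) against 125 and 108 in WT (18.5 and 17.2 RPM). The libraries did not overlap, yet Pou2f3 did not pass, with a log2 fold change of -0.91 ± 0.26, an adjusted p of 0.160 in the authors' deposited table and 0.0583 by edgeR. Of the 7 genes edgeR tested it had the change nearest 0. Gfi1b, a zinc-finger repressor that is also made in megakaryocytes and red cell precursors, had 0 and 0 reads in RingKO and 1 and 0 in WT, too few for a comparison.

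Summed by role, the chemosensory and structural genes had 41.6 and 50.9 RPM in the RingKO libraries against 149.8 and 145.8 in WT, a ratio of 0.313. The eicosanoid genes had 10.7 and 9.43 RPM in RingKO against 36.1 and 36.9 in WT, a ratio of 0.275. The transcription factors, in practice Pou2f3, had 7.56 and 10.9 RPM in RingKO against 18.7 and 17.2 in WT, a ratio of 0.516. In each of the 3 groups of genes both RingKO libraries lay below both WT libraries. With 2 libraries against 2 an exact permutation test of such a sum cannot go below p = 0.33, so no test was made, and the difference between the 3 ratios was not tested either.

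Per kilobase of transcript (RPKM, the RPM over the transcript length), Avil was the most abundant of the genes in both RingKO and WT, at 7.96 RPKM in RingKO (7.59 and 8.33 in the libraries) against 20.9 in WT (21.9 and 19.9). Trpm5 stood at 4.66 RPKM in RingKO (3.92 and 5.40) against 17.5 in WT, where it came next. In WT the order then ran Alox5ap at 11.2, Rgs13 at 7.62, Pou2f3 at 7.07, Alox5 at 5.60 and Ptgs1 at 2.31 RPKM. The libraries of Rgs13 (7.35 and 7.89) and Pou2f3 (7.34 and 6.80) were too close to be ordered. In RingKO Alox5ap stood at 4.02 RPKM (4.12 and 3.92) and Pou2f3 at 3.67 (3.00 and 4.34), and their libraries overlapped each other and those of Trpm5. Rgs13 at 1.69 (1.14 and 2.25), Ptgs1 at 0.988 (1.32 and 0.658) and Alox5 at 0.772 RPKM (0.609 and 0.936) were lower in RingKO, and the libraries of Ptgs1 overlapped those of both Rgs13 and Alox5.

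The same Ring alleles on the Ctnnb1-ex3 background gave another picture, with 1 library per genotype and therefore no test. Ring1 itself was less far apart in this pair (9.62 RPM in Bcat_RingKO against 26.0 in Bcat) than between RingKO (3.09 and 4.15) and WT (71.7 and 57.7). Whether the loss was alike in both backgrounds was not tested. Of the 7 tuft cell genes with a mean of 20 or more normalized reads, Rgs13 and Alox5ap were at least 2-fold lower in Bcat_RingKO than in Bcat, and 0 were at least 2-fold higher. Over all 9017 entries at that mean 8.17% were at least 2-fold lower and 25.3% higher, and the median ratio was 1.23 (log2 0.30), while the median log2 ratio of the 7 genes was -0.59. Ratios below are between the deposited scalings, with exact 95% intervals that cover counting error only.

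Trpm5 had 379 reads in Bcat_RingKO (84.8 RPM) and 61 in the shallower Bcat library (66.2 RPM), a ratio of 1.24 (0.946 to 1.66). Avil had 340 reads in Bcat_RingKO (76.1 RPM) and 59 in Bcat (64.0 RPM), a ratio of 1.15 (0.872 to 1.55). Pou2f3 had 120 reads in Bcat_RingKO (26.8 RPM) and 22 in Bcat (23.9 RPM), a ratio of 1.09 (0.688 to 1.81). All 3 intervals hold 1 and the median ratio of all entries. After scaling by trimmed means (TMM) the ratios were 1.07, 0.993 and 0.939, so the direction of Avil and Pou2f3 depends on the scaling.

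Rgs13 had 61 reads in Bcat_RingKO (13.6 RPM) and 112 in Bcat (121.5 RPM), a ratio of 0.109 (0.0784 to 0.150). The Bcat library stood apart from the other 5 in Rgs13, which ranged from 1.72 to 13.6 RPM there. Alox5ap had 64 reads in Bcat_RingKO (14.3 RPM) and 37 in Bcat (40.1 RPM), a ratio of 0.346 (0.227 to 0.534). Alox5 had 77 reads in Bcat_RingKO (17.2 RPM) and 27 in Bcat (29.3 RPM), a ratio of 0.570 (0.364 to 0.920). Ptgs1 had 62 reads in Bcat_RingKO (13.9 RPM) and 18 in Bcat (19.5 RPM), a ratio of 0.689 (0.402 to 1.24), whose interval holds 1. Gnat3 had 6 reads in Bcat_RingKO and 0 in Bcat, below what the depth of Bcat can resolve.

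**Figure D2:**
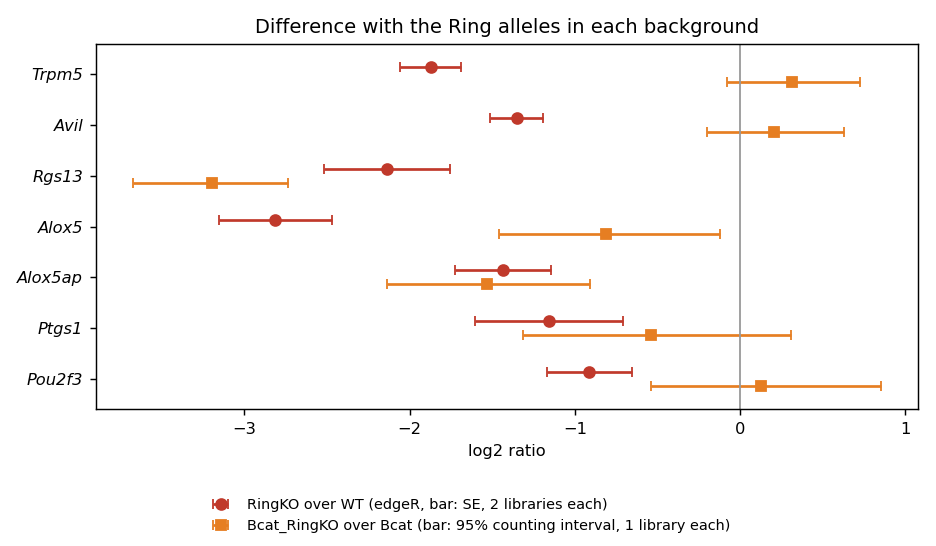
Log2 ratio (x axis) of each tuft cell gene for RingKO over WT (circles, edgeR estimate with its SE, 2 libraries each) and for Bcat_RingKO over Bcat (squares, deposited scaling with the 95% counting interval, 1 library each). All circles lie below 0, from -2.81 for Alox5 to -0.91 for Pou2f3, while the squares of Trpm5, Avil and Pou2f3 lie above 0 with intervals that hold it (with TMM those of Avil and Pou2f3 lie below 0).

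By role, the eicosanoid genes summed to 45.4 RPM in Bcat_RingKO against 88.9 in Bcat, a ratio of 0.511 (0.393 to 0.668). The chemosensory and structural genes summed to 175.8 RPM in Bcat_RingKO against 251.6 in Bcat, a ratio of 0.699 (0.603 to 0.813). That sum rests on Rgs13, since without it the ratio was 1.25 (1.03 to 1.53), in the other direction, and 1.04 (0.857 to 1.27) with TMM. Pou2f3, the transcription factor measured there, had a ratio in RPM of 1.13 (0.710 to 1.86). Per kilobase, Rgs13 was the highest of the genes in Bcat at 80.4 RPKM, and stood at 9.04 RPKM in Bcat_RingKO, where Avil was the highest at 25.1 RPKM against 21.1 in Bcat.

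The make-up of the tuft cell reads within a library needs no scaling between libraries or tables. It still rests on long and short transcripts being covered alike in each library, which was not tested. Alox5ap and Rgs13 had the shortest transcripts of the 7 genes (1251 and 1510 bases) and the lowest ratios of Bcat_RingKO over Bcat (0.346 and 0.109). Trpm5 had the longest (4123 bases) and the highest ratio (1.24). Pou2f3 (2522 bases, 1.09) was shorter than Alox5 (2821 bases, 0.570) but had the higher ratio. Per read of Trpm5 and Avil together, the eicosanoid genes had 0.272 and 0.198 reads in the RingKO libraries, 0.262 and 0.277 in WT and 0.282 in Bcat_RingKO, against 0.683 (95% counting interval 0.510 to 0.912) in Bcat. The counting intervals of the other 5 libraries overlapped each other, and that of the Bcat library lay above them all. Rgs13 had 0.0439 and 0.0714 reads per read of Trpm5 and Avil in RingKO, 0.0804 and 0.0896 in WT and 0.0848 in Bcat_RingKO, against 0.933 (0.715 to 1.22) in Bcat. The Bcat library was the highest of the 6 for both measures also when Trpm5, Avil or Pou2f3 alone served as the base.

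Pou2f3 had 0.193 and 0.230 reads per read of Trpm5 and Avil in RingKO against 0.134 and 0.129 in WT, and 0.167 in Bcat_RingKO against 0.183 in Bcat. Avil had 1.43 and 1.14 reads per read of Trpm5 in RingKO against 0.928 and 0.832 in WT, and 0.897 in Bcat_RingKO against 0.967 in Bcat. In both measures the RingKO libraries were above WT. For Pou2f3 the counting intervals of both RingKO libraries (0.116 to 0.307 and 0.148 to 0.347) overlapped those of both WT libraries (0.110 to 0.162 and 0.105 to 0.158). For Avil the interval of RingKO library A (0.967 to 2.12) overlapped that of WT library A (0.814 to 1.06) but not that of WT library B (0.724 to 0.955). The interval of RingKO library B for Avil (0.788 to 1.64) overlapped both.

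**Figure D3:**
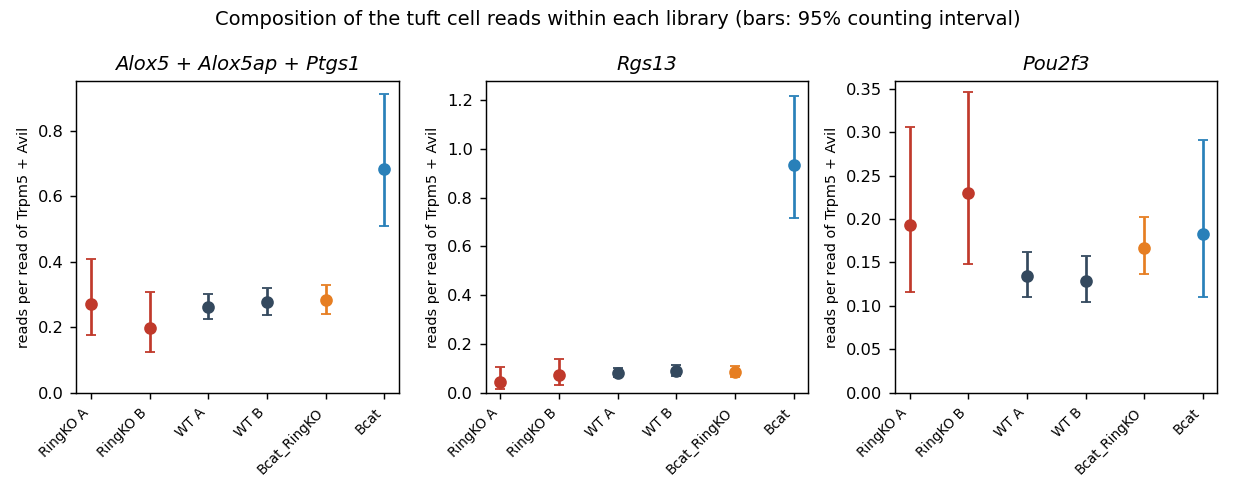
Reads of the eicosanoid genes, Rgs13 and Pou2f3 per read of Trpm5 and Avil in the same library (y axes, from 0), for each of the 6 libraries (x axes). Bars are 95% counting intervals; the Bcat library stands at 0.683 for the eicosanoid genes and 0.933 for Rgs13, above the other 5 libraries, and within their range for Pou2f3.

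Other genes of the same systems were less uniform. Of 111 further genes in 4 lists, 93 were in the table of RingKO and WT, and 12 fell and 6 rose, against the 1.76% and 3.14% of all entries. These lists too were chosen with earlier results of these data known, so the shares are a description only. Of 15 genes of taste transduction 2 fell and 0 rose. Plcb2, the phospholipase between gustducin and Trpm5, had 2.75 and 4.53 RPM in RingKO against 12.7 and 11.3 in WT (edgeR log2 fold change -1.69 ± 0.34), and 19.7 in Bcat_RingKO against 21.7 in Bcat. The regulator of G protein signalling Rgs2 also fell (-1.35 ± 0.21). Itpr3, the calcium release channel that acts after Plcb2 and is also made in other epithelial cells, had 649.5 and 701.6 RPM in RingKO against 620.5 and 646.1 in WT, and did not pass (0.13 ± 0.14). In the beta-catenin pair it stood at 698.3 RPM in Bcat_RingKO against 126.9 in Bcat. The edgeR adjusted p of Plcb2 was 0.158 without WT library A and 0.0992 without B, and that of Rgs2 was 0.0522 without B. Gng13, the gamma subunit that partners gustducin, did not pass either (-0.15 ± 0.68). The taste receptor gene Tas1r3 had 5 and 10 reads in RingKO against 13 and 12 in WT, while the beta subunit gene Gnb3 and the succinate receptor gene Sucnr1 had at most 2 reads in any of these 4 libraries.

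Of 23 further eicosanoid enzymes and receptors 2 fell and 1 rose. Pla2g4a, the phospholipase that frees arachidonic acid from membranes, fell (-0.89 ± 0.20), as did the prostaglandin E synthase gene Ptges2 (-0.54 ± 0.14). Alox15, a 12/15-lipoxygenase, rose: it had 30 and 19 reads in RingKO against 5 and 9 in WT (3.04 ± 0.47), and 82 reads in Bcat_RingKO against 1 in Bcat, a ratio of 16.4 (2.86 to 656). Its direction was opposite to that of Alox5 in both pairs. By edgeR the adjusted p of Pla2g4a was 0.0813 when WT library A was left out and 0.147 when B was, that of Ptges2 was 0.358 and 0.266 in the same order, and that of Alox15 was 0.0677 without A. Hpgds, which makes prostaglandin D2 (-0.34 ± 0.38), and the leukotriene C4 synthase gene Ltc4s (-0.73 ± 0.31) did not pass, and the inducible cyclooxygenase gene Ptgs2 had at most 2 reads in a library of this table.

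Of 13 genes listed for the cytoskeleton and microvilli of tuft cells 1 fell and 1 rose, and Vil1, Ezr, Krt8 and Krt18 did not pass. The gene that fell was Sh2d7, listed there as a tuft cell signature gene. It had 5.15 and 10.6 RPM in RingKO against 27.5 and 27.01 in WT (-1.77 ± 0.30), and 23.7 in Bcat_RingKO against 58.6 in Bcat. Fscn1, the actin-bundling protein fascin, rose, with 51.5 and 41.1 RPM in RingKO against 1.04 and 0.953 in WT (5.55 ± 0.29), and 211 reads in Bcat_RingKO against 0 in Bcat. Of 42 other tuft cell genes 7 fell and 4 rose. The ETS factor gene Spib, known from Peyer's patch M cells and tuft cells, had 4.47 and 4.53 RPM in RingKO against 24.0 and 24.0 in WT (-2.37 ± 0.25), and 13.0 in Bcat_RingKO against 45.6 in Bcat. Adh1 (-1.52 ± 0.14), the phosphoinositide kinase subunit gene Pik3r5 (-1.61 ± 0.29) and Ascl2, which is a stem cell factor as well (-1.01 ± 0.16), fell also, while Limd2 (2.07 ± 0.17) and Nrgn (1.63 ± 0.20) rose. Without WT library A the edgeR adjusted p of Ascl2 was 0.0730. Sox9 (0.34 ± 0.14) and Atoh1 (-0.25 ± 0.20), regulators of crypt and secretory cells, did not pass. The cytokine gene Il25, the alarm signal of tuft cells, had 0 and 0 reads in RingKO against 1 and 3 in WT, and the acetylcholine synthesis gene Chat 1 and 2 in RingKO against 6 and 5 in WT.

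Several of the tuft cell genes are also active elsewhere: Alox5, Alox5ap, Ptgs1 and Rgs13 in mast cells and other leukocytes, and Gfi1b in blood precursors. Marker lists of other cells were therefore read beside them. Of 10 mast cell markers 4 were in the table of RingKO and WT, summing to 1.03 and 4.53 RPM in RingKO against 2.22 and 3.34 in WT, with ranges that overlapped. The other 6, Cpa3 and Cma1 among them, were not analysed there. The mast cell marker Mcpt1 was at 0 in both RingKO libraries and Tpsb2 was at 0 in both RingKO libraries and WT library A. In the beta-catenin pair 8 of the 10 were present and summed to 84.1 RPM in Bcat_RingKO against 111.7 in Bcat. The mast cell protease gene Cpa3 had 36.2 RPM in Bcat_RingKO against 64.0 in Bcat, and Cma1 had 13.0 in each. The 4 mast cell markers measured in RingKO and WT were thus near the floor there. In Bcat the sum of the 8 rested on Cpa3, Tpsb2, Cma1 and Hdc. Cpa3 carried the difference between the 2 sums of the pair. Tpsb2 had 15.9 RPM in Bcat_RingKO against 15.2 in Bcat, and Hdc 8.72 in Bcat_RingKO against 10.8 in Bcat. Fcer1a had 5 reads in the Bcat library, Mcpt4 3, and Mcpt2 and Ms4a2 0. The sums cover different markers in the pair than in RingKO and WT, so the sums cannot be set against each other. Tpsb2, Hdc and Mcpt2 were measured in all 6 libraries. In RingKO and WT Tpsb2 had at most 0.477 RPM and Hdc at most 3.77, below both libraries of the pair. Mcpt2 had 0.344 to 0.794 RPM in RingKO and WT, 1.34 in Bcat_RingKO and 0 in Bcat. Beside the mast cell markers of the pair stood 13.6 RPM of Rgs13 in Bcat_RingKO and 121.5 in Bcat. The part of mast cells in the values of Rgs13 and the eicosanoid genes in that pair was not tested.

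Macrophage and granulocyte markers (10 of 13 in the first table, 11 in the second) summed to 78.3 and 89.8 RPM in RingKO against 61.9 and 59.6 in WT, and to 170.2 in Bcat_RingKO against 139.9 in Bcat. Cd68 carried much of this sum: without it the markers had 58.7 and 49.4 RPM in RingKO against 47.5 and 46.1 in WT, and 106.9 in Bcat_RingKO against 133.4 in Bcat, the other direction in the pair, where 3 of the remaining 10 were higher and 7 lower in Bcat_RingKO. Their part in the values of Alox5, Alox5ap and Ptgs1 was not tested. Megakaryocyte and red cell markers (6 of 10 in the first table, 7 in the second) summed to 10.7 and 19.99 RPM in RingKO against 21.0 and 17.6 in WT, and to 26.4 in Bcat_RingKO against 10.8 in Bcat. B cell markers were between 2.75 and 9.81 RPM and T cell markers between 1.08 and 3.58 RPM in the 6 libraries, and Ptprc, the gene of the common leukocyte antigen CD45, had 0 and 0 reads in RingKO against 2 and 0 in WT. Genes of some other epithelial lineages changed as well, against 1.76% of all entries lower and 3.14% higher. Of 14 enteroendocrine markers 9 fell and 0 rose, of 10 stem cell markers 3 fell and 0 rose, and 6 of 6 Paneth cell markers rose. Of 7 goblet cell markers 0 fell and 1 rose, and of 5 general epithelial markers 0 fell and 0 rose. General epithelial markers summed to 2193 RPM in Bcat_RingKO against 4280 in Bcat, and goblet cell markers to 3224 in Bcat_RingKO against 3480 in Bcat. That goblet cell sum joined opposite directions. Fcgbp (1533 RPM in Bcat_RingKO against 730.9 in Bcat) and Muc2 (840.6 against 328.6) were higher in Bcat_RingKO. The other goblet cell markers were lower there, among them Tff3 (146.3 against 512.9) and Spink4 (158.6 against 522.7). Enteroendocrine markers summed to 679.7 and 786.8 RPM in RingKO against 1585 and 1840 in WT, and to 387.6 in Bcat_RingKO against 2259 in Bcat. Stem cell markers summed to 5924 and 3098 RPM in RingKO against 7409 and 8355 in WT, and to 3343 in Bcat_RingKO against 4491 in Bcat. Without Olfm4 the stem cell sum was 2653 and 1916 RPM in RingKO against 2953 and 3053 in WT, and 2776 in Bcat_RingKO against 2221 in Bcat, where 7 of 9 markers were higher in Bcat_RingKO. Paneth cell markers summed to 9292 and 12770 RPM in RingKO against 4000 and 2663 in WT, but to 1278 in Bcat_RingKO against 4516 in Bcat. The sums without Cd68 and Olfm4 were chosen after seeing the data. The part of these lineages in the fall of the tuft cell genes was not tested.

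**Figure D4:**
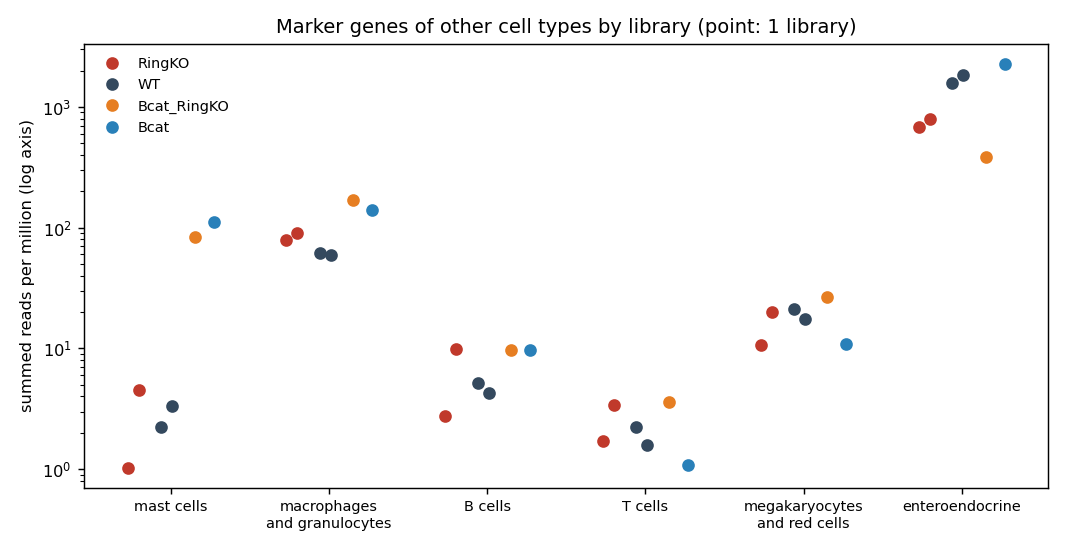
Summed RPM (y axis, log scale) of marker genes of 6 other cell types (x axis), each point being 1 library. Mast cell markers lie at 84.1 and 111.7 in Bcat_RingKO and Bcat (8 markers) and at or below 4.53 in the RingKO and WT libraries (4 markers). Enteroendocrine markers are lower in RingKO and Bcat_RingKO than in WT and Bcat.

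The 7 tuft cell genes with enough reads were lowest in the RingKO libraries of the 6, and each had a Pearson r of 0.90 to 0.99 with their own mean profile (log2 of RPM plus 1, averaged as z-scores; each gene is part of that mean). The profile was set against 7617 entries whose mean reached 50 normalized reads. The closest to this profile were Cerk, a ceramide kinase (r = 0.998), Acadsb, a dehydrogenase of branched fatty acid breakdown (0.995), Mkrn2 (0.994), the interferon gamma receptor chain Ifngr1 (0.992), Gstcd (0.989) and Mcu, the mitochondrial calcium uniporter (0.989). Cerk had 51.2 and 55.8 RPM in RingKO against 82.8 and 79.3 in WT, and 91.3 in Bcat_RingKO against 100.9 in Bcat. The changes of these genes were smaller than those of Trpm5 or Alox5, and likeness over 6 libraries that differ in depth and share genotypes is a description only.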

How the data were processed

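Per the labels' protocols, RNA of the sorted cells went into TruSeq RNA v2 libraries. TopHat, DESeq and mm9 are named by the submitters' processing notes, without versions. The read counter, its use of strand and the annotation were not given in the sources used here, and overlapping genes could share reads.

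The authors deposited normalized coverage (signal) per RefSeq entry, as group means for RingKO and WT and as 1 value per library for the beta-catenin pair. Judged by the values, each is a read count plus 1 over a size factor, and the 2 tables were scaled apart. The authors also deposited the fold (ratio), its log2 value and, for RingKO against WT, p-values and adjusted p-values over all 18376 entries. The group means carry no SD.

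Whole reads of single libraries were recovered from the deposited signal: each group mean is a sum of 2 counts with steps that were fitted to the deposited means. In RingKO all 18376 means had 1 solution and in WT 18359, with several for 17, all at means of 10922 or more. On simulated means 0 RingKO and 2 WT entries came out wrong. The simulated means used the same fitted steps, so they do not check the steps themselves. In the pair 100% of values were whole within 0.001. RPM scales the recovered reads by their total in a library, and RPKM divides by the transcript length of the GRCm38 annotation. Because the unit is a normalized signal, the main call is the authors' adjusted p under 0.05. Fold changes on the log2 scale are from edgeR 4.0.16 (TMM, filterByExpr, quasi-likelihood test, Benjamini-Hochberg adjustment) in R 4.3.3, and DESeq2 1.42.0 was an alternative. Each SE was calculated back from the edgeR result, as the absolute log2 fold change over the square root of the quasi-likelihood F statistic. Scripts were tested on simulated data. Intervals are exact conditional binomial (Clopper-Pearson) 95% intervals of the counts.

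Members and gene lists were chosen with earlier results of these data known. Other genes are named by a rule: up to 6 called genes per list by smallest adjusted p, and 13 in any case.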

Additional observations from a re-analysis of the deposited data

Results flagged for a closer look

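Trpm5, Avil and Pou2f3 were lower in both RingKO libraries than in both WT libraries, while the Bcat_RingKO library stood above the Bcat library, with ratios of 1.24 for Trpm5, 1.15 for Avil and 1.09 for Pou2f3. The difference between the backgrounds was not tested, since the pair has 1 library per genotype. All 3 counting intervals hold 1, and with TMM the ratios of Avil (0.993) and Pou2f3 (0.939) were below 1.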

How the results depend on the processing

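No paired analysis was possible because the recovered libraries carry no replicate numbers. All 59 alternative log2 fold changes computed for the 10 genes were negative in RingKO against WT, while the authors' deposited values of Dclk1 (0.31) and Gfi1b (0.53), which rest on at most 3 reads a library, were positive and not called. Calls moved in 8 of the 59: 5 lost the threshold (Alox5ap with DESeq2, and Alox5ap and Rgs13 without WT library A or B) and 3 passed it (Pou2f3 with the deposited size factors, adjusted p = 0.0222, and without RingKO library B, 0.0102; Ptgs1 without RingKO library A, 0.0443). With 1 library left out, 3 to 6 of the 10 genes were called by edgeR, the 3 without WT library A or B being Alox5, Avil and Trpm5, and a lone library was assumed to vary like the others. Of the further tuft cell genes 5 to 16 were then lower (12 by the authors' deposited table) and 5 to 11 higher (6 by that table). In the beta-catenin pair 4 genes were at least 1.5-fold lower (Alox5, Alox5ap, Ptgs1, Rgs13) and 1 at least 4-fold (Rgs13). The ratio of the chemosensory and structural sum there was 0.584 with TMM, 0.491 without Trpm5 and 1.25 without Rgs13. The eicosanoid ratio of RingKO over WT was 0.250 with the deposited size factors and 0.223 without Alox5ap. In RingKO against WT the authors' deposited log2 fold changes had a median of -0.18 over the 10957 entries at a mean of 10 or more. Those of edgeR with TMM had a median of -0.0067 over the 11170 entries it tested. The transcription factor sum without Pou2f3 gave no value, since Gfi1b alone was left. The Bcat library, with 922153 reads, limits the pair, and the cause of these shifts was not tested.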
